A study of Mus musculus with 6 samples.

Results

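Leukocyte and erythroid markers are genes whose transcripts identify blood cells: 29 members of 24980 listed symbols, chosen by gene symbol and all found in the table. They comprise 23 leukocyte markers and 6 erythroid markers. RNA-seq was done on 3 KO and 3 WT libraries of satellite cells, the stem cells of skeletal muscle, isolated from adult C57BL6/J hindlimb muscle with a cell sorter. KO libraries carried the label scERα KO, a targeting of estrogen receptor α (Esr1) in satellite cells by an inducible Cre, and WT libraries the label scERα WT; both groups had been given tamoxifen, 10 mg in total. The Cre driver, whether the WT mice carried Cre, the antibodies of the sort and the number of mice per library are not given in the sources used here, so a p-value here describes the scatter of these 6 libraries and may reflect technical scatter. Values were TPM, a level scaled for transcript length and library total, and TPM keeps no sequencing depth, so no counting interval can be given and a gene at 0 is described only as listed at 0.

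Blood cells reach muscle through its vessels and through immune cells that live between the fibres, and a sorted stem cell fraction can hold some of their RNA. Sorts of muscle stem cells commonly discard cells that carry CD45, the product of Ptprc, which every nucleated leukocyte displays. Mature red cells carry no CD45 and no nucleus, while reticulocytes, the youngest circulating red cells, still hold haemoglobin mRNA. In these bulk libraries, fewer cells of a type and less RNA per cell cannot be told apart.

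Esr1 was at 2.92, 3.69 and 3.87 TPM in KO libraries 1, 2 and 3, against 7.53, 6.96 and 6.94 TPM in WT libraries 1, 2 and 3, so every library lay on the side its label names. Its log2 difference was -0.86 (SE 0.13, limma adjusted p = 0.0925). The targeted gene itself thus did not pass the adjusted p threshold of 0.05 used for the members. Markers of the sorted cell were present in all 6 libraries: the satellite cell transcription factor gene Pax7 held 17.9, 32.8 and 29.5 TPM in KO, against 23.0, 25.4 and 23.3 TPM in WT. The 9 satellite cell markers summed to between 366 and 519 TPM. Listed values added up to between 29.5% and 33.4% of the TPM scale per library, and the median log2 difference of all 8971 genes tested was 0.12 (KO minus WT). KO libraries 1 and 2 and WT library 1 stood apart from the other 3 libraries in their red cell transcripts, and WT libraries 2 and 3 in their neutrophil transcripts.

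The genes behind those 2 patterns are shown by 120 bases before the RefSeq start of each (GRCm38.p6, 5′ to 3′ on the gene's strand). Whether these windows bear on the order of the libraries was not tested. A RefSeq promoter was found for 19 of 29 members, including 5 of 6 erythroid ones. Gene bodies given with the values come from the GRCm38 gene annotation, whose starts lie upstream of the RefSeq starts for every gene shown except S100a9, so that those windows overlap the annotated gene bodies in whole or in part. Capitals mark matches to the TATA box letters TATAA, to the CAAT box letters CCAAT, to the Klf-type letters CACCC and to the core of the GATA factor motif, GATA. Both strands were searched, so a match may be printed as its reverse complement, and matches may overlap.
Hba-a1, chr11:32283552-32283671, plus strand: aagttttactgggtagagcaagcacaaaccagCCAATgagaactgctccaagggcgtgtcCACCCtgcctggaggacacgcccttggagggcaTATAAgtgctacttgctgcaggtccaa
Hba-a2, chr11:32296372-32296491, plus strand: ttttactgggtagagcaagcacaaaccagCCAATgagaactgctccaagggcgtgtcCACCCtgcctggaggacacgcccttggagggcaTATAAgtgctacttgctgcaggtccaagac
Hbb-bs, chr7:103827929-103828048, minus strand: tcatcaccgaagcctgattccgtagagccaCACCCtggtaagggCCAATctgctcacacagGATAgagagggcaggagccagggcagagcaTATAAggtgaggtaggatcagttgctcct
Hbb-bt, chr7:103813924-103814043, minus strand: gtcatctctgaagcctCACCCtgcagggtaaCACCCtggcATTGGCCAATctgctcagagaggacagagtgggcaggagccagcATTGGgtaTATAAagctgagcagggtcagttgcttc
Alas2, chrX:150547297-150547416, plus strand: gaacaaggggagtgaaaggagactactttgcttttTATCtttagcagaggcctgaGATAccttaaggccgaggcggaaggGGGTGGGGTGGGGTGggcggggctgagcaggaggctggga
S100a8, chr3:90668951-90669070, plus strand: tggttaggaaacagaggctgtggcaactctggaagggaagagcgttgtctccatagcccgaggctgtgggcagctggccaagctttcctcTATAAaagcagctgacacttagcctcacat
S100a9, chr3:90695722-90695841, minus strand: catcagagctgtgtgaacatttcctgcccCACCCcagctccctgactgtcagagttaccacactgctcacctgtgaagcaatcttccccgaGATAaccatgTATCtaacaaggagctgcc

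The windows of Hba-a1 and Hba-a2 were identical over all 117 aligned bases, and those of Hbb-bs and Hbb-bt over 80.2% of 116. All 4 globin windows held 1 TATAA, at least 1 CCAAT and at least 1 CACCC. Over all 32851 RefSeq promoter windows of the same length, 11.8% held TATAA, 21.3% CCAAT, 31.7% CACCC and 29.5% GATA. The Alas2 window held 3 matches to CACCC, 2 to GATA and none to TATAA, the S100a8 window held TATAA alone, and the S100a9 window held 1 CACCC and 2 GATA matches. These matches are letters only and say nothing of what binds there.

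Adult haemoglobin transcripts were on average the most abundant of the 29 markers and varied widely between libraries. Hba-a1, an adult α-globin gene on chromosome 11 (32283511 to 32284465, GRCm38, plus strand), held 164, 168 and 15.04 TPM in KO libraries 1, 2 and 3, against 83.4, 18.2 and 6.31 TPM in WT libraries 1, 2 and 3. Hbb-bs, an adult β-globin gene on chromosome 7 (103826534 to 103828096, minus strand), held 145, 159 and 13.5 TPM in KO, against 76.0, 14.9 and 5.49 TPM in WT. In both genes KO libraries 1 and 2 were highest and WT library 1 came next, while KO library 3 lay below WT library 1, so the groups overlapped.

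The second gene of each pair followed the same order at the high end. Hba-a2, which 12023 bases separate from Hba-a1, was at 76.8, 76.8 and 6.52 TPM in KO and at 35.5, 7.09 and 3.78 TPM in WT. Hbb-bt was at 29.3, 29.9 and 2.81 TPM in KO and at 18.5, 3.03 and 2.52 TPM in WT. Read assignment within a pair is uncertain: of the 31-base words in the annotated coding transcripts of Hba-a2, 91.0% also occur in those of Hba-a1, and of those in Hbb-bt, 59.4% occur in Hbb-bs. Between Hba-a1 and Hbb-bs no such word is shared.

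Alas2, the gene of the rate-limiting enzyme of haem synthesis in red cell precursors, held 3.49, 3.67 and 0.47 TPM in KO, against 1.23, 0.53 and 0.13 TPM in WT. It gave the same 3 libraries as highest. Its gene body overlaps Apex2 on the opposite strand, whose level was 0.39, 0.66 and 0.79 TPM in KO and 0.64, 0.65 and 0.55 TPM in WT, an order unlike that of Alas2. Slc4a1, which encodes the band 3 anion exchanger of the red cell membrane, stayed at 0.22 TPM or less in every library.

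**Figure D1:**
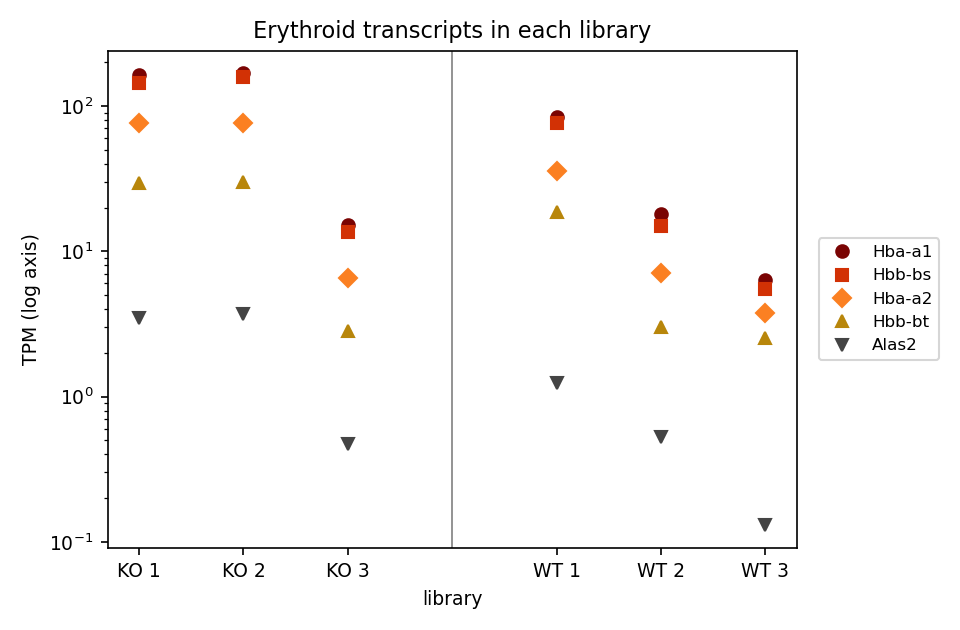
TPM (log axis) of the 4 adult globin genes and Alas2 in each library, KO left and WT right, one point per library and gene. The 5 genes shift up and down together, highest in KO libraries 1 and 2 (Hba-a1 at 164 and 168 TPM), next in WT library 1 (83.4 TPM) and lowest in WT library 3 (6.31 TPM).

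The sum of the 6 erythroid markers came to 419, 437 and 38.4 TPM in KO libraries 1, 2 and 3, against 215, 43.7 and 18.2 TPM in WT libraries 1, 2 and 3. That is 0.130%, 0.137% and 0.0130% of the listed TPM in KO and 0.0675%, 0.0131% and 0.00571% in WT. The highest library was 24.0-fold above the lowest. Means were 298 ± 225 TPM in KO and 92.2 ± 107 TPM in WT (SD, n = 3 each), a ratio of means of 3.23 whose SDs are of the size of the means.

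The proportion of α to β globin transcripts was nearly the same in all libraries while their amount was not. The sum of Hba-a1 and Hba-a2 over that of Hbb-bs and Hbb-bt was 1.38, 1.29 and 1.32 in KO and 1.26, 1.41 and 1.26 in WT, a coefficient of variation of 4.87%, where the α-globin sum itself varied by 99.6%. Hba-a1 over Hba-a2 ranged from 1.67 to 2.56, and Hbb-bs over Hbb-bt from 2.18 to 5.34 with its lowest value in WT library 3. The ratio of summed globin to Alas2 ranged from 80.6 to 174.

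Globin transcripts were among the features that differed most between the 6 libraries. Hbb-bs ranked 9th and Hba-a1 10th of 8971 tested genes by the range of log2(TPM + 1) over libraries, at 4.63 and 4.53, against a median range of 0.51. Hba-a2 ranked 27th, Hbb-bt 98th and Alas2 254th. This order ignores the groups and describes spread alone.

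Between KO and WT, 0 of the 5 erythroid markers tested passed the threshold of an adjusted p of 0.05 (limma on log2(TPM + 1), Benjamini-Hochberg), and 0 had an unadjusted limma p under 0.05; over all genes tested 3 were called higher (0.0334%) and 2 lower (0.0223%). All 5 had a positive log2 difference, as did 77.6% of all genes tested, with a median of 1.67 against 0.12 over all genes tested. Hbb-bs differed by 1.81 (SE 1.07, limma adjusted p = 0.588), Hba-a1 by 1.75 (SE 1.06, limma adjusted p = 0.599) and Alas2 by 1.0 (SE 0.44, limma adjusted p = 0.473). By exact two-sided permutation p was 0.3 for each of the 6 erythroid markers, where 3 against 3 libraries cannot go below 0.1. The difference rests on which libraries are counted: the median was 2.79 without KO library 3, 2.52 without WT library 1, 1.11 without either KO library 1 or KO library 2, and 0.93 without WT library 3. Without KO library 3 or without WT library 1 all 5 had an unadjusted limma p under 0.05 and 0 passed the adjusted threshold. In all 5 genes KO library 3 was the lowest of the KO libraries and WT library 1 the highest of the WT libraries. The 5 genes also shift together over libraries, so this count does not amount to 5 separate results. The share of all genes with such a p in those fits is not given here.

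Transcription factor genes of nucleated red cell precursors were low in all libraries. Among other erythroid genes, 15 of 16 were listed and 5 tested, of which 0 were called by limma and 0 had an unadjusted p under 0.05. Klf1 and Gata1, transcription factors of red cell precursors, were at most 0.10 and 0.02 TPM. The embryonic globin genes Hba-x, Hbb-y and Hbb-bh1 were listed at 0 in all 6 libraries. Hbb-b1, another β-globin symbol in the table, held 1.34, 1.01 and 0.12 TPM in KO, against 0.48 TPM in WT library 1 and 0 in the other WT libraries. The most abundant of the other erythroid genes were Tfrc, the transferrin receptor gene used by dividing cells at large, at 2.98 to 5.40 TPM, Fech, the last enzyme of haem synthesis, at 1.93 to 2.29 TPM, and Bpgm, an enzyme that makes the red cell metabolite bisphosphoglycerate, at 1.10 to 2.46 TPM. Bpgm was at 2.46, 2.34 and 1.44 TPM in KO, against 1.67, 1.30 and 1.10 TPM in WT, so its highest 3 libraries were those of the globin genes over a far narrower range. Tfrc and Fech had other orders. Tfrc was at 5.40, 4.16 and 2.98 TPM in KO, against 4.12, 4.70 and 3.13 TPM in WT. Fech was at 2.12, 2.29 and 2.13 TPM in KO, against 1.93, 1.96 and 2.22 TPM in WT.

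Neutrophil transcripts were high in different libraries from the globins. S100a9, which with S100a8 encodes calprotectin, the main cytosolic protein pair of neutrophils, was listed at 0 in KO library 1 and held 0.95 and 2.20 TPM in KO libraries 2 and 3, against 0, 9.99 and 6.67 TPM in WT libraries 1, 2 and 3. S100a8 was listed at 0 in KO libraries 1 and 2 and held 0.64 TPM in KO library 3, against 0.15, 3.60 and 4.46 TPM in WT. WT libraries 2 and 3 were the highest for both genes, and WT library 1 lay with the KO libraries, so the groups overlapped. The genes lie apart on chromosome 3 (S100a8 at 90668978 to 90670035, plus strand; S100a9 at 90692632 to 90695721, minus strand) and share no 31-base word.

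The log2 difference of S100a9 was -1.25 (SE 0.83, limma adjusted p = 0.619), and without WT library 1 it was -2.32 (limma adjusted p = 0.169, the lowest over its alternatives, which reached 0.953), while without WT library 2 it was -0.59. S100a8 missed the filter, since it reached 1 TPM in WT libraries 2 and 3 alone; with no filter its difference was -1.38 (SE 0.58, limma adjusted p = 0.651). Exact two-sided permutation gave p = 0.4 for S100a9 and p = 0.2 for S100a8. Granule genes of neutrophil precursors were low. Mpo, the myeloperoxidase gene, held 0.15, 0 and 0 TPM in KO, against 0.01, 1.11 and 0.61 TPM in WT. Elane, the neutrophil elastase gene, held 0.13, 0 and 0.15 TPM in KO, against 0.14, 0.71 and 0.43 TPM in WT. Ngp, a granule protein gene, held 0.03, 0 and 0.72 TPM in KO, against 0.07, 1.25 and 1.03 TPM in WT. In these 3 genes WT libraries 2 and 3 were again the highest pair, with KO library 3 next in Ngp and Elane. Other granule genes on the same list differed: Ltf, the lactoferrin gene, held 0, 0.02 and 0.36 TPM in KO, against 0, 0.32 and 0.01 TPM in WT, with KO library 3 highest. Camp, the cathelicidin gene, held 0, 0.27 and 0.09 TPM in KO, against 0, 0.72 and 0.29 TPM in WT, where KO library 2 lay close to WT library 3. Retnlg, a resistin-like gene of neutrophils, was above 0 in WT library 2 alone, at 0.30 TPM. Cxcr2, a chemokine receptor gene of neutrophils that other cells can also express, lay at 2.97 to 6.97 TPM with its highest value in KO library 2. Csf3r, the receptor gene for granulocyte colony-stimulating factor, lay at 0.46 to 0.76 TPM, and Ly6g, the defining surface marker of mouse neutrophils, was listed at 0 in all 6 libraries.

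**Figure D2:**
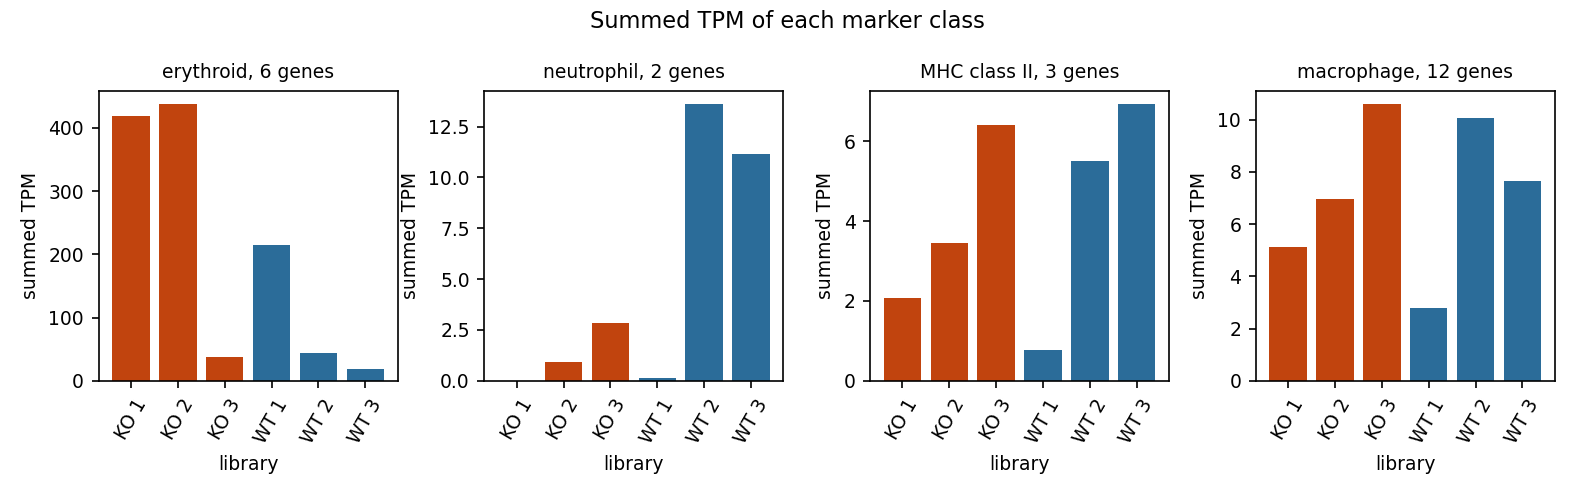
Summed TPM of 4 marker classes in each library, KO libraries left and WT libraries right, each panel with its own axis from 0. The erythroid sum is highest in KO libraries 1 and 2 and WT library 1, the neutrophil sum in WT libraries 2 and 3, and the MHC class II and macrophage sums are lowest in WT library 1 (0.76 and 2.80 TPM).

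Genes of MHC class II, the molecules by which dendritic cells, B cells and macrophages present peptides to T cells, were lowest in WT library 1 and next lowest, in sum, in KO library 1. Cd74, the invariant chain that guides class II molecules to the endosome, held 1.36, 2.14 and 4.29 TPM in KO, against 0.52, 3.08 and 3.92 TPM in WT. H2-Ab1, a class II β chain, held 0.28, 1.07 and 1.56 TPM in KO, against 0.13, 1.40 and 1.68 TPM in WT. H2-Aa, an α chain, held 0.44, 0.25 and 0.56 TPM in KO, against 0.11, 1.03 and 1.32 TPM in WT. The groups overlapped in each gene.

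Their sum was 2.08, 3.46 and 6.41 TPM in KO libraries 1, 2 and 3, against 0.76, 5.51 and 6.92 TPM in WT libraries 1, 2 and 3, or means of 3.98 ± 2.21 and 4.40 ± 3.23 TPM (SD, n = 3 each). Cd74 differed by 0.12 (SE 0.45, limma adjusted p = 0.925) and H2-Ab1 by -0.03 (SE 0.36, limma adjusted p = 0.975) on the log2 scale, while H2-Aa was not tested. H2-Eb1, another β chain outside the 29 members, held 0.13, 0.58 and 0.71 TPM in KO, against 0.05, 0.66 and 0.83 TPM in WT. H2-DMa, which loads peptide onto class II, was even at 0.54 to 0.91 TPM. Of the dendritic cell markers, the chemokine receptor gene Xcr1 held 0.34, 0.58 and 0.51 TPM in KO, against 0.39, 0.48 and 0.25 TPM in WT, with overlapping groups, while Flt3 and Itgax were listed at 0 throughout.

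Macrophage markers were low, and 9 of 12 stayed under 1 TPM in every library. Cd68, a lysosomal glycoprotein gene of macrophages that other cells express weakly, was the only one at 1 TPM or more in all 6 libraries, at 1.71, 2.99 and 2.26 TPM in KO and 1.39, 2.46 and 2.06 TPM in WT (means of 2.32 ± 0.642 and 1.97 ± 0.541 TPM, SD, n = 3 each). Its log2 difference was 0.16 (SE 0.19, limma adjusted p = 0.759). Lyz2, the lysozyme gene of macrophages and neutrophils, held 1.49, 1.40 and 3.38 TPM in KO, against 0.35, 4.88 and 2.62 TPM in WT (log2 difference -0.04, SE 0.49, limma adjusted p = 0.975). It was lowest in WT library 1 and highest in WT library 2.

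The complement genes C1qa, C1qb and C1qc, whose products form the recognition molecule C1q and come largely from tissue macrophages, were highest in KO library 3. C1qc held 0.14, 0.13 and 0.89 TPM in KO, against 0, 0.05 and 0.18 TPM in WT. C1qb held 0.14, 0.13 and 0.81 TPM in KO, against 0.28 TPM in WT library 3 and 0 in the other WT libraries. KO library 3 also held the highest value of Adgre1, the F4/80 gene (0.21 TPM), of Mrc1, the mannose receptor gene (0.45 TPM), and of Itgam, an integrin chain of myeloid cells (1.0 TPM); in all, 7 of 12 macrophage markers peaked there, and 10 of 12 had their lowest value, ties included, in WT library 1. Tyrobp and Fcer1g, adaptor proteins that pass on signals of activating myeloid receptors, were instead highest in WT libraries 3 and 2, at 0.60 and 0.52 TPM, and Fcer1g was listed at 0 in 3 libraries. Cd14, a co-receptor for bacterial lipopolysaccharide, lay between 0.05 and 0.60 TPM.

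The KO and WT values did not overlap in 2 of the 29 members (6.90%), Csf1r and C1qa, both with KO above WT; among the 20506 genes above 0 in at least 1 library, KO lay above WT in 9.13% and below it in 2.31%. Csf1r, the receptor for macrophage colony-stimulating factor, held 0.28, 0.21 and 0.47 TPM in KO, against 0.19, 0.11 and 0.12 TPM in WT. C1qa held 0.14, 0.17 and 0.37 TPM in KO, against 0.08, 0.10 and 0.04 TPM in WT. All these levels lie under the filter, and with no filter both genes had a limma adjusted p of 0.633 (log2 difference 0.21, SE 0.08, for Csf1r and 0.19, SE 0.07, for C1qa), with an exact two-sided permutation p of 0.1 each, the smallest possible. They were also the 2 of 29 members with an unadjusted limma p under 0.05 in that fit, where 7.67% of all genes had one. Csf1r overlaps Hmgxb3 on the opposite strand, which held 2.29, 2.68 and 2.21 TPM in KO, against 1.88, 2.40 and 1.68 TPM in WT.

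**Figure D3:**
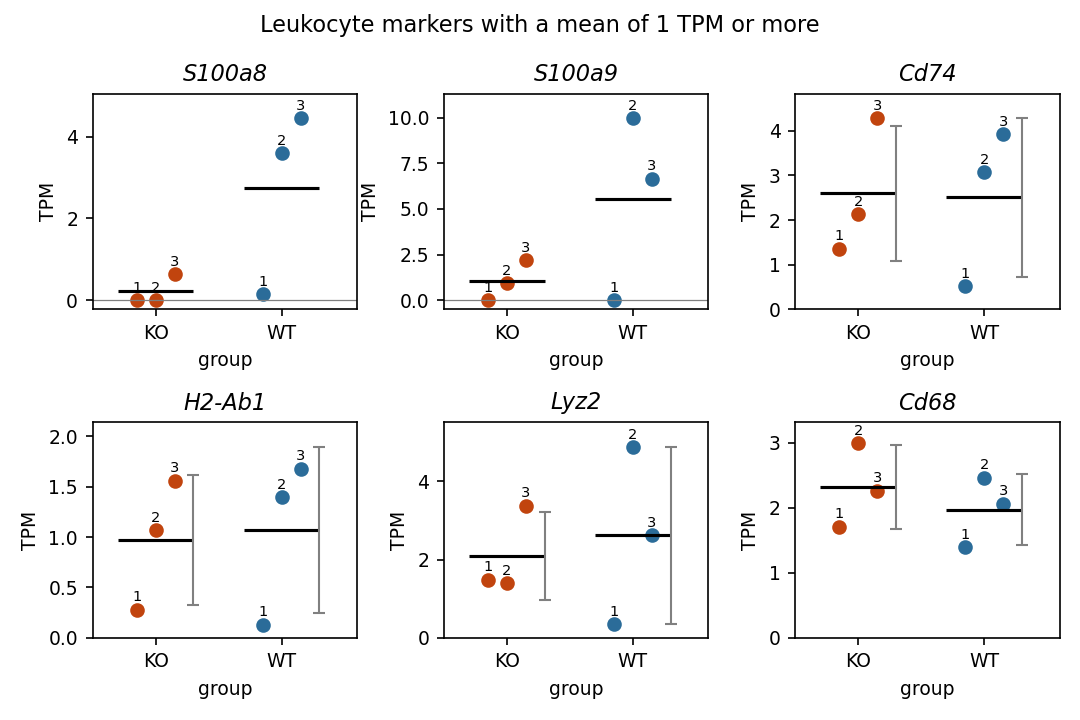
TPM of the 6 leukocyte markers with a mean of 1 TPM or more, KO left and WT right in each panel, points numbered by library, the black line at the group mean and the grey bar 1 SD either side (left out where a library is listed at 0). WT library 1 is the lowest of the WT points in every panel, and KO and WT points overlap in all 6.

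Pan-leukocyte transcripts were close to the floor of the table. Ptprc, which encodes CD45, held 0.08, 0.09 and 0.17 TPM in KO, against 0.03, 0.29 and 0.07 TPM in WT, and Pax7 exceeded it by between 87.4-fold and 767-fold within a library. Laptm5, a lysosomal membrane protein gene of blood cells, lay at 0.04 to 0.34 TPM, and Cd52, a small surface glycoprotein gene of lymphocytes and monocytes, at 0.18 to 0.43 TPM. All 3 reached their highest value in WT library 2 or 3.

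Lymphoid members were at or near 0. Cd3e, a chain of the T cell receptor complex, was at most 0.15 TPM, and Ms4a1, the B cell surface protein CD20, at most 0.11 TPM. Nkg7, a granule protein gene of natural killer and cytotoxic T cells, was listed at 0 in 5 libraries and at 0.11 TPM in WT library 1. Among 13 other lymphoid genes 10 stayed under 1 TPM in every library. Cd3d stood out from its partners: it held 9.79, 10.7 and 10.0 TPM in KO, against 8.23, 9.23 and 5.47 TPM in WT, without overlap (log2 difference 0.39, limma adjusted p = 0.488), while Cd3g, the third chain gene at the same locus, was at most 0.08 TPM. Cd3d was the only 1 of these 13 genes without overlap. KO lay above WT without overlap in 9.13% of the 20506 genes above 0 in at least 1 library. No annotated gene overlaps Cd3d (chromosome 9, 44981786 to 44987339, plus strand). Cd4 and Cd79a, a T cell co-receptor and a B cell receptor chain, lay at 0.51 to 1.19 and 0.50 to 1.03 TPM.

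**Figure D4:**
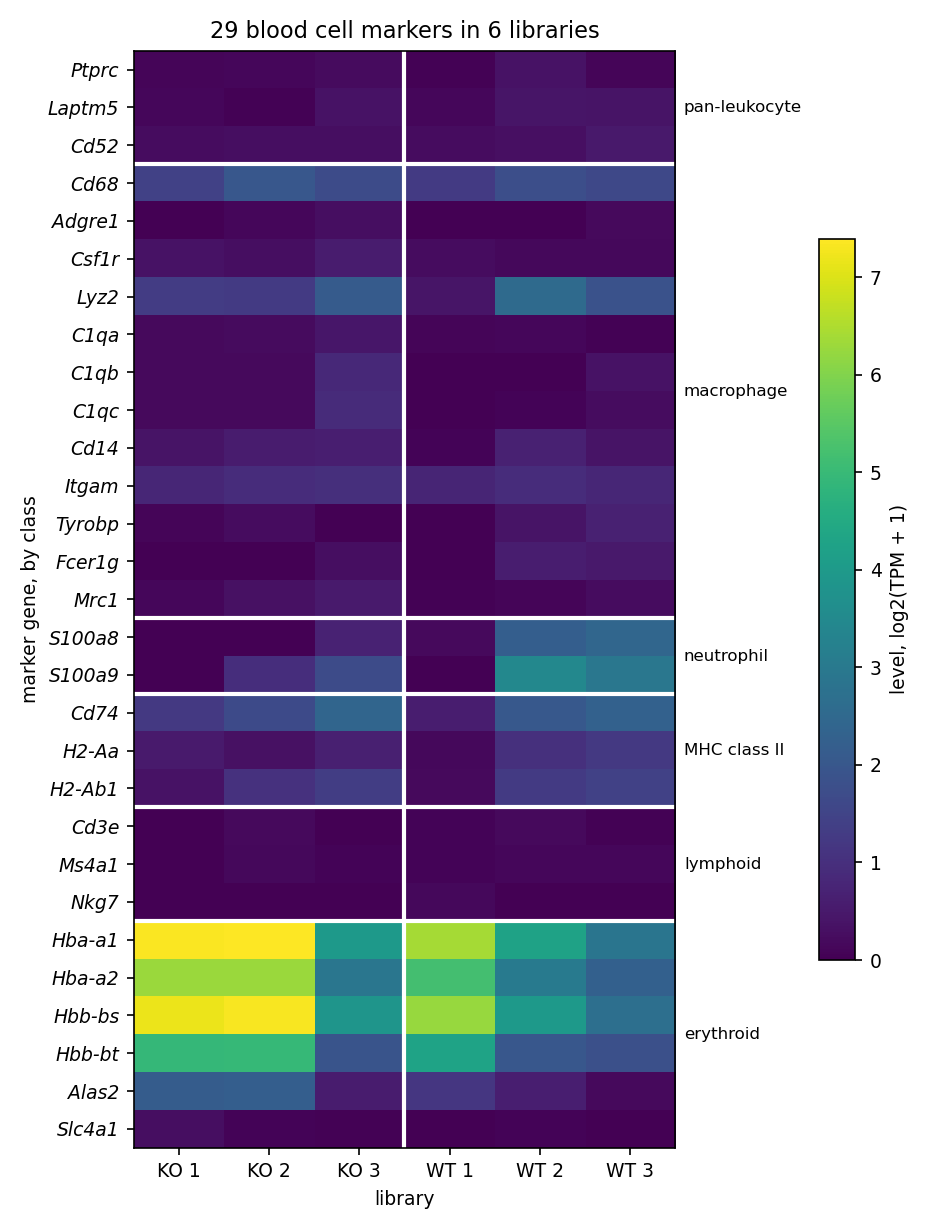
Level of each of the 29 markers (rows, grouped by class) in each library (columns, KO left of WT), as log2(TPM + 1) on a colour scale from 0. The bright block is the 4 adult globin genes in KO libraries 1 and 2 and WT library 1, and the lymphoid and pan-leukocyte rows stay dark, at 0.43 TPM or less.

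Across the 23 leukocyte markers, 15 stayed under 1 TPM in every library and 5 were tested, of which 0 were called by limma in either direction and 0 had an unadjusted p under 0.05; of all genes tested 10.6% had one. Their median log2 difference was -0.03, against 0.12 over all genes tested. WT library 1 held the lowest value, ties included, of 15 of the 23, KO library 1 of 7, KO library 2 of 4, KO library 3 and WT library 2 of 3 each, and WT library 3 of 2. The sum of the 23 was 7.58, 11.97 and 20.5 TPM in KO libraries 1, 2 and 3, against 4.23, 30.3 and 26.7 TPM in WT libraries 1, 2 and 3. The 3 libraries with the lowest sum of these 23 markers, KO libraries 1 and 2 and WT library 1, were therefore the 3 with the most erythroid transcript, an order read after the values were seen and not tested. Without S100a8 and S100a9 the sums were 7.58, 11.02 and 17.7 TPM in KO and 4.08, 16.7 and 15.5 TPM in WT, with the same 3 libraries lowest. The lists of other leukocyte genes, summed whole, did not share that order, since each summed higher in KO library 2 than in WT library 3. These sums were 5.54 against 4.89 TPM for other macrophage genes and 7.97 against 5.80 TPM for other neutrophil genes. They were 2.40 against 1.95 TPM for other MHC class II and dendritic cell genes, and 13.5 against 7.04 TPM for other lymphoid genes. For neutrophil genes this rests on Cxcr2 alone, at 6.97 against 2.97 TPM. Without Cxcr2 that list would sum lower in KO library 2 than in WT library 3. Most of each lymphoid sum was Cd3d, at 10.7 against 5.47 TPM.

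**Figure D5:**
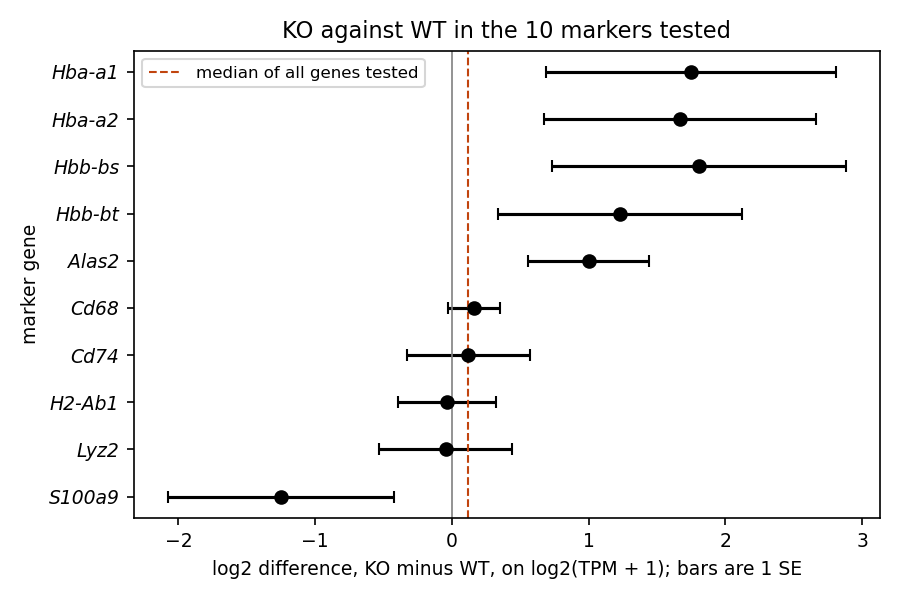
Log2 difference (KO minus WT, on log2(TPM + 1)) of the 10 markers tested, with bars of 1 SE, a grey line at 0 and a dashed line at the median of all genes tested (0.12). The 5 erythroid markers lie to the right with wide bars, S100a9 lies at -1.25, and no marker passed the adjusted threshold.

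Markers of other cells that muscle sorts can carry moved between libraries as well. The 8 endothelial markers summed to 12.4, 25.1 and 19.0 TPM in KO libraries 1, 2 and 3, against 12.3, 18.8 and 14.2 TPM in WT libraries 1, 2 and 3, led by Tek, an angiopoietin receptor gene, at 6.04 to 8.32 TPM and by the junction genes Pecam1 and Cdh5. The 6 markers of fibro-adipogenic progenitors summed to 59.2, 64.9 and 92.3 TPM in KO, against 51.9, 37.8 and 136 TPM in WT, most of it from the collagen gene Col3a1, with Dcn and Col1a1 next. The rest of that list was low, with Pdgfra at 0.10 to 0.31 TPM, Lum at 0.27 to 1.01 TPM and Ly6a at 0.35 to 2.24 TPM. The sums therefore describe mainly Col3a1. Platelet markers were low: Gp9, a chain of the platelet receptor for von Willebrand factor, held 0.59, 1.16 and 0.75 TPM in KO, against 0.29, 0.31 and 0.14 TPM in WT. Pf4, a platelet chemokine gene, held 0.29, 0.26 and 0.25 TPM in KO, against 0.15, 0.20 and 0 TPM in WT. These 2 of 5 platelet markers had KO above WT without overlap, as did 9.13% of the 20506 genes above 0 in at least 1 library. Itga2b held 0.23, 0.34 and 0.35 TPM in KO, against 0.41, 0.24 and 0.39 TPM in WT. Gp1bb lay at 0.03 to 0.24 TPM and Ppbp at 0 to 0.10 TPM, both with overlapping groups. Of the 5 mast cell markers, Cma1 was listed at 0 in all 3 KO libraries, against 0.49, 0.34 and 0.11 TPM in WT. It was the only 1 of them without overlap, where KO lay below WT in 2.31% of the 20506 genes above 0 in at least 1 library. Mcpt4 held 0.04, 0.29 and 0 TPM in KO, against 0.17, 0.65 and 0 TPM in WT. Cpa3 held 0.03, 0 and 0 TPM in KO, against 0.08, 0.59 and 0 TPM in WT. Among the other macrophage genes the most abundant, Mpeg1, Cx3cr1 and Cd84, lay at 0.56 to 1.38, 0.57 to 1.22 and 0.59 to 0.93 TPM. Sdc4, Chodl and Vcam1 led the satellite cell markers; Vcam1, an adhesion molecule, held 49.3, 71.4 and 50.9 TPM in KO, against 37.9, 45.5 and 32.5 TPM in WT (log2 difference 0.55, limma adjusted p = 0.352). By limma 0 of the genes on these lists were called, and Vcam1 was the 1 tested gene with an unadjusted p under 0.05. What part these cells have in any value above was not tested.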

How the data were processed

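The authors deposited TPM per gene symbol for 6 libraries, 1 column each; kallisto, Trimmomatic 0.33, FastQC and CASAVA appear in the submitters' processing notes, as do mm10 and GRCm38, without their order. Annotation, strandedness and the summing over transcripts are not given in the sources used here. Since depth cannot be had from TPM, a count model was not applied. Genes with 1 TPM or more in at least 3 of 6 libraries, whatever the group, were kept (8971, 10 of them members), and log2(TPM + 1) was tested with limma 3.58.1 in R 4.3.3 (eBayes with a trend, two-sided, Benjamini-Hochberg over all genes tested); this scale understates changes of low genes. The procedure was tested on simulated data. Single genes also had an exact permutation test. The members were chosen by symbol with earlier results of these data known, as were the lists of other markers, of which the 3 most abundant of each were named; all others named from them were chosen after their values were seen. Replicate numbers follow accession order and pair nothing. Gene coordinates are from GENCODE vM21 (GRCm38), promoters and biotypes from RefSeq. Alternatives were other pseudocounts (0.1 and 5), filters and scalings, eBayes without a trend, and each library left out in turn.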

Additional observations from a re-analysis of the deposited data

How the results depend on the processing

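In all 15 alternatives 0 members were called by limma in either direction, and 0 other markers. The count of members with an unadjusted limma p under 0.05 did depend on the setting. It was 0 in the main fit and at most 6, without WT library 1, where S100a9 joined the 5 erythroid markers tested. The share of all genes with such a p is not given for most alternatives, so these counts are not read as a result. Over all genes, 3 higher and 2 lower became 0 and 2 at a pseudocount of 0.1, 2 and 0 at a pseudocount of 5, 0 and 0 with no filter or a mean of 1 TPM, 1 and 2 when scaled by the median of ratios, 1 and 0 after quantile normalization or without haemoglobin and ribosomal RNA genes, and 38 and 48 with protein-coding genes rescaled. Leaving out each library gave 0 to 4 higher and 0 to 2 lower. The cause was not tested.

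The median erythroid difference stayed above 0 in all 13 alternatives, from 0.93 to 2.79 with a library left out and from 1.39 to 1.80 otherwise. The ratio of erythroid sums, KO over WT, ran from 2.31 to 9.63 with a library left out, the highest without WT library 1, and from 2.82 to 3.19 under rescaling; without haemoglobin genes it could not be computed. The neutrophil ratio of 0.15 ran from 0.06 to 0.23, while the macrophage ratio of 1.11 (0.85 to 1.44) and the MHC class II ratio of 0.91 (0.63 to 1.27) crossed 1. The pan-leukocyte ratio of 0.68 ran from 0.53 to 0.80 and the lymphoid one of 0.54 from 0.13 to 0.82. The leukocyte median was above 0 in 7 alternatives and below 0 in 7. No paired analysis was possible because the labels give the libraries no shared replicate numbers. Levels under 1 TPM, most of the leukocyte markers, carry no known precision, since depth is unknown. With a filter on the mean TPM, S100a8 entered the fit at a log2 difference of -1.38 (limma adjusted p = 0.413). It passed that filter only through its values in WT libraries 2 and 3 (3.60 and 4.46 TPM). The same values make the difference, so this fit adds no support.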
